A study of Homo sapiens with 12 samples.

Results

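H2AP was the 1 gene with a named probe set that met a rule for histone genes by symbol, and on the scale of the deposited values it was lower after MAPK pathway inhibition, after histone deacetylase inhibition and after both than with vehicle. On that scale 66.2%, 37.2% and 74.3% of all named genes were called lower in these comparisons (limma adjusted p under 0.05). After quantile normalization of the arrays, the H2AP difference with histone deacetylase inhibition missed the threshold (limma adjusted p = 0.0501). Histone genes were sought as protein-coding genes whose symbol carries a histone prefix (HIST1H to HIST4H, H2AF, H3F, or the current H1-, H2A, H2BC, H2BU, H3C, H3-, H4C and H4-). Of 88 RefSeq protein-coding genes with such symbols, 1 had a named probe set here, out of 14599 named genes. A further name with a histone prefix, H1-10-AS1, is a long non-coding RNA and was left out. The other genes that meet the rule were not analysed here, so the values below describe H2AP and not the histone family. The centromeric histone gene CENPA falls outside the rule and is given with the chaperone genes.

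Histones are the proteins around which DNA is wound in nucleosomes. Most are made in S phase from clustered genes, while variants made outside replication or in particular tissues replace them at chosen places. H2AP (gene symbol of the H2A.P histone, once called HYPM) encodes a short variant of histone H2A and lies on the X chromosome. Short H2A variants are known chiefly from the testis. Histone deacetylases remove acetyl groups from the tails of nucleosomal histones.

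RNA was measured on 12 single-colour Affymetrix arrays from Hs695T, a single established human melanoma cell line, 24 h after treatment. There were 3 arrays in each of 4 groups. The combination group received dabrafenib at 100 nM, trametinib at 10 nM and entinostat at 1 µM. The MAPKi group received dabrafenib, a BRAF inhibitor, and trametinib, a MEK inhibitor, at those doses, and the HDACi group received entinostat, which inhibits class I histone deacetylases, at that dose. The DMSO group received vehicle. The labels disagree on the replicates, which are biological by their titles and technical by the design text. P-values measure only the spread between these arrays, which may be technical.

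Median intensity over all probe sets was 33.3 to 39.9 in the combination arrays, 37.5 to 40.8 in the MAPKi arrays, 48.3 to 51.6 in the HDACi arrays and 50.6 to 57.6 in the DMSO arrays. Relative to DMSO, the median log2 difference over all named genes was -0.48 with MAPKi, -0.20 with HDACi and -0.72 with the combination. After quantile normalization, which gives every array the same distribution of values, these medians were 0.01, -0.04 and -0.03. Each difference of H2AP is therefore given on both scales. Of 10 melanocytic marker genes 9 were measured, and in DMSO arrays S100B had a log2 intensity of 11.49 ± 0.06 and SOX10 of 9.96 ± 0.16, while MLANA had 4.27 ± 0.02 and TYR 3.81 ± 0.26 (SD, n = 3). No detection call accompanies the values, so it cannot be said which of these are above background.

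The probe set of H2AP was dim and differed by treatment. Its deposited intensity was 20.4, 26.0 and 28.7 in the combination arrays. It was 17.2, 18.9 and 24.9 in the MAPKi arrays. In the HDACi arrays it was 39.1, 33.6 and 38.6, and in the DMSO arrays 72.2, 48.0 and 54.9. All 3 DMSO arrays lay above all arrays of the other groups, all 3 HDACi arrays lay between DMSO and the groups given MAPKi, and the combination and MAPKi arrays overlapped. The mean log2 intensity was 4.63 ± 0.25 with the combination, 4.33 ± 0.28 with MAPKi, 5.21 ± 0.12 with HDACi and 5.85 ± 0.30 with DMSO (SD, n = 3 each).

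From high to low the groups therefore stood in the order DMSO, HDACi, combination, MAPKi. On the deposited scale the neighbours HDACi and DMSO differed by the limma test, as did the combination and HDACi, whereas the combination and MAPKi were not told apart. Quantile normalization kept this order of means, at 4.84 ± 0.33 with the combination, 4.44 ± 0.35 with MAPKi, 5.04 ± 0.16 with HDACi and 5.54 ± 0.18 with DMSO (SD, n = 3 each). On that scale the combination arrays overlapped the HDACi arrays, and no 2 neighbours in the order passed the test. By mean signal H2AP ranked at 29.0% of the way up the named genes, so a filter that drops the dimmest 40% of genes removes it.

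**Figure D1:**
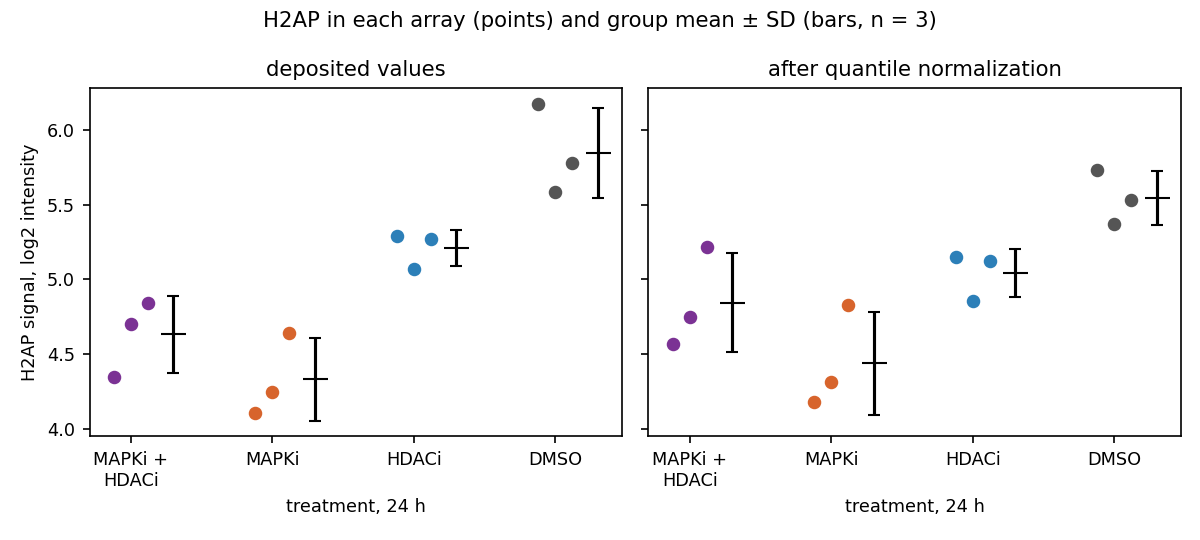
H2AP signal as log2 intensity (vertical axis) in each of the 12 arrays, by treatment (horizontal axis), for the deposited values (left) and after quantile normalization (right). Points are arrays and bars are group means ± SD (n = 3). On the deposited scale the 3 DMSO arrays sit between 5.58 and 6.17, above the arrays of every other group.

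The annotation places another gene around H2AP. In RefSeq (GRCh38.p14, used here only for names and gene order), H2AP lies wholly within the span of SYTL5, a gene of the synaptotagmin-like family, on the same strand. SYTL5 had no named probe set here, and probe positions were not used here. Signal from RNA of SYTL5 that covers H2AP can therefore not be told apart from signal of H2AP itself. The next protein-coding gene after it, H2AL3, is another gene of a short H2A variant and had no named probe set.

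MAPKi was set against vehicle to ask what blocking BRAF and MEK does within a day, and H2AP fell 2.86-fold. The log2 difference was -1.51 ± 0.17 (limma standard error, adjusted p = 1.2e-06), with a 95% confidence interval of -1.87 to -1.16. All 3 MAPKi arrays were below all 3 DMSO arrays. How many of all named genes had arrays that did not overlap was not computed, for this comparison or those below. On this scale 66.2% of all named genes were called lower, so such a call was common. Named genes were put in 10 bins of equal size by mean signal, and H2AP lay near the upper edge of its bin of 1460 genes. In that bin 50.8% were called lower and the median difference was -0.33. After quantile normalization H2AP was still lower, by -1.10 ± 0.19 (limma adjusted p = 0.00063), where 13.9% of all genes were called lower.

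Entinostat given by itself was set against vehicle, and H2AP fell 1.55-fold. The log2 difference was -0.64 ± 0.17 (limma adjusted p = 0.0051), with an interval of -0.99 to -0.28, and all 3 HDACi arrays were below all 3 DMSO arrays. Of all named genes 37.2% were called lower in this comparison. In the bin that holds H2AP, 12.1% were called lower and the median difference was -0.10. After quantile normalization the difference was -0.50 ± 0.19 and missed the threshold (limma adjusted p = 0.0501), with 21.1% of all genes called lower.

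With all 3 drugs, compared with vehicle, H2AP fell 2.32-fold. The log2 difference was -1.21 ± 0.17 (limma adjusted p = 5.9e-06, interval -1.57 to -0.86), and the 3 combination arrays lay below the 3 DMSO arrays. This was a comparison in which 74.3% of all named genes were called lower. The bin that holds H2AP had a median of -0.45 and 65.8% called lower. After quantile normalization the difference was -0.70 ± 0.19 (limma adjusted p = 0.0081), with 24.2% of all genes called lower. The comparisons of MAPKi, HDACi and the combination with vehicle share the same 3 DMSO arrays.

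Adding entinostat to MAPK inhibition was tested by setting the combination against MAPKi. H2AP did not pass, at a log2 difference of 0.30 ± 0.17 (limma adjusted p = 0.16). The interval of -0.06 to 0.66 leaves room for a difference of either sign, and the arrays of both groups overlapped. In this comparison 8.68% of all named genes were called higher and 40.6% lower, and the median over all genes was -0.23. After quantile normalization the difference was 0.40 ± 0.19 (limma adjusted p = 0.10), with 19.9% of all genes called higher and 23.5% lower. Without MAPKi array 3, the highest of its group, the deposited-scale difference was 0.46 and passed (limma adjusted p = 0.045).

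Adding the MAPK inhibitors to entinostat was tested by setting the combination against HDACi, and H2AP fell 1.49-fold on the deposited scale. The log2 difference was -0.58 ± 0.17 (limma adjusted p = 0.0060, interval -0.94 to -0.22), against a median of -0.54 over all named genes, of which 72.6% were called lower. The arrays did not overlap on this scale but did after quantile normalization, and the share of all genes without overlap was not computed. After quantile normalization the difference was -0.20 ± 0.19 (limma adjusted p = 0.51), with 11.6% of all genes called lower, and after subtraction of the median of each array it was -0.11 (limma adjusted p = 0.65).

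**Figure D2:**
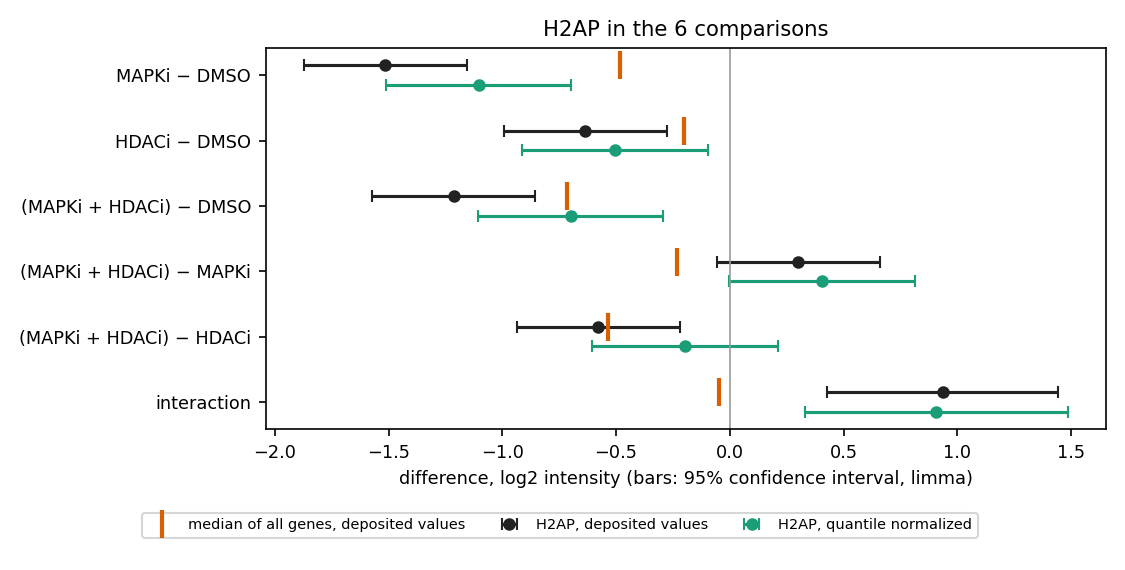
Difference of H2AP in log2 intensity (horizontal axis) in the 6 comparisons (rows), for the deposited values (black) and after quantile normalization (green), with 95% confidence intervals from limma. Orange ticks mark the median of all named genes on the deposited scale. The difference is farthest from 0 for MAPKi against DMSO (-1.51), and the interaction is above 0 on both scales (0.94 and 0.91).

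Whether the effects of the drugs on H2AP add up on the log2 scale was asked with the interaction. The MAPKi and HDACi differences from vehicle sum to -2.15, whereas the combination differed by -1.21. In MAPKi arrays H2AP had a mean log2 intensity of 4.33, beside the leukocyte marker CD14 at 4.32. The endothelial marker VWF was at 4.70 and the fibroblast marker LUM at 2.54, each the only one measured of its list. Of the melanocytic and epithelial marker lists, MLANA, KRT5, TYR and TYRP1 were lower than H2AP in these arrays. They stood at 4.22, 3.86, 3.58 and 3.31, and the other measured genes of those lists were higher than H2AP. No background level is given, and whether a floor limited the fall with the combination was not tested. The interaction is the difference that entinostat made in MAPKi-treated cells (combination minus MAPKi) less the difference it made in cells without MAPKi (HDACi minus DMSO). It was 0.94 ± 0.24 (limma adjusted p = 0.022, interval 0.43 to 1.44). Of all named genes 3.16% had an interaction called above 0 and 4.84% below it, and the median over all genes was -0.05. After quantile normalization the interaction was 0.91 ± 0.27 (limma adjusted p = 0.043), with 6.21% of all genes called above 0 and 6.26% below it. Leaving out single arrays ended this call in 5 of 12 cases. It was 0.77 without DMSO array 1 (limma adjusted p = 0.051), 0.82 without MAPKi array 1 (limma adjusted p = 0.064) and 0.89 without MAPKi array 2 (limma adjusted p = 0.054). It was 0.87 without HDACi array 2 (limma adjusted p = 0.055) and 0.83 without combination array 3 (limma adjusted p = 0.053).

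Genes that serve histone supply were examined beside H2AP. In the list for transcription of histone genes and 3′ end processing of their messages, 10 of 19 genes were measured. They include CDK2, CCNE1 and CCNE2, a kinase and cyclins of the cell cycle. All 10 fell with the combination, with MAPKi and with HDACi relative to DMSO, at medians of -1.71, -1.13 and -0.62, against -0.72, -0.48 and -0.20 over all named genes, of which 74.3%, 66.2% and 37.2% were called lower. After quantile normalization 9, 6 and 5 of the 10 were called lower and 0 higher, at medians of -0.62, -0.47 and -0.22, where 24.2%, 13.9% and 21.1% of all named genes were called lower. H2AP stood at -1.21, -1.51 and -0.64 in these comparisons on the deposited scale. The medians of 6 measured housekeeping genes were -1.24, -1.03 and -0.33, and after quantile normalization -0.04, -0.27 and 0.08.

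SLBP, which binds the stem-loop at the end of replication-dependent histone messages, had a mean log2 intensity of 7.04 ± 0.03 with the combination, 7.61 ± 0.16 with MAPKi, 8.49 ± 0.07 with HDACi and 9.17 ± 0.20 with DMSO (SD, n = 3 each). On the deposited scale no arrays of different groups overlapped, and the combination was lowest. It differed from MAPKi by -0.57 ± 0.12 (limma adjusted p = 0.00061), where 40.6% of all named genes were called lower. After quantile normalization this difference was -0.09 and did not pass (limma adjusted p = 0.42). SLBP fell with MAPKi (-1.56 ± 0.12, quantile -0.75) and with HDACi (-0.68 ± 0.12, quantile -0.29), and passed on both scales. Its interaction of 0.11 ± 0.16 did not pass (limma adjusted p = 0.77). CCNE1 and CCNE2, the E cyclins that activate CDK2 at the start of S phase, fell with the combination, at log2 differences of -2.83 ± 0.12 and -2.15 ± 0.12 relative to DMSO (quantile -1.71 and -1.23). Of the 10 genes, CCNE2 alone had an interaction called above 0 (0.55 ± 0.16, limma adjusted p = 0.049), beside 3.16% of all named genes, and after quantile normalization it did not pass (0.36).

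Of 28 histone chaperones and deposition factors 22 were measured. All 22 were called lower with the combination and with MAPKi, and 20 with HDACi. Their medians relative to DMSO were -1.59, -0.95 and -0.72, beside 74.3%, 66.2% and 37.2% of all named genes called lower. Of 14 housekeeping genes 6 were measured, and 6, 6 and 3 of them were called lower in these comparisons, at medians of -1.24, -1.03 and -0.33. After quantile normalization, 14 of the 22 chaperone genes were called lower and 2 higher with the combination. With MAPKi these counts were 10 and 2, and with HDACi 12 and 2, and the medians were -0.35, -0.19 and -0.30. On that scale 24.2%, 13.9% and 21.1% of all named genes were called lower in these comparisons, and 22.1%, 15.1% and 18.5% higher. The housekeeping medians were then -0.04, -0.27 and 0.08. Among the chaperone genes ASF1B, a chaperone of newly made H3 and H4, fell most with MAPKi (-2.52 ± 0.11, quantile -1.73), while with HDACi it was at -0.00 ± 0.11 (limma adjusted p = 0.99) but called higher after quantile normalization (0.41). Of the 22 genes, 3 had an interaction called above 0 on both scales, beside 3.16% of all named genes on the deposited scale and 6.21% after quantile normalization. UBN2, whose product works with HIRA, had an interaction called below 0 after quantile normalization (-0.49) but not on the deposited scale (-0.56). The 3 genes above 0 were ASF1B (1.32 ± 0.15), the centromeric histone gene CENPA (0.89 ± 0.16) and its chaperone gene HJURP (0.88 ± 0.16), beside 0.94 ± 0.24 for H2AP.

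Of 35 DNA synthesis genes 20 were measured. All 20 were called lower with the combination and with MAPKi, and 18 with HDACi. With HDACi the others, GINS2 and GINS4, were at -0.22 and -0.10 and did not pass. The list medians were -2.55, -2.33 and -1.26 relative to DMSO, and 18, 19 and 15 of the 20 genes were called lower after quantile normalization. Over all named genes 74.3%, 66.2% and 37.2% were called lower on the deposited scale, and 24.2%, 13.9% and 21.1% after quantile normalization. Of these 20 genes 12 had an interaction called above 0 and 0 below it, at a median of 0.80, and after quantile normalization 15 and 0, beside 3.16% and 6.21% of all named genes called above 0. The interaction of H2AP thus had the sign of that median. Interaction medians of the transcription and processing, chaperone and housekeeping lists were 0.12, 0.01 and 0.05, with 1, 3 and 0 genes called above 0. Those of the epithelial and melanocytic marker lists were 0.16 and -0.11, and the median over all named genes was -0.05. Between the combination and MAPKi the DNA synthesis median was -0.36 (quantile -0.01), while H2AP was at 0.30 (quantile 0.40) and did not pass. The part of the DNA synthesis genes in the values of H2AP was not tested.

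**Figure D3:**
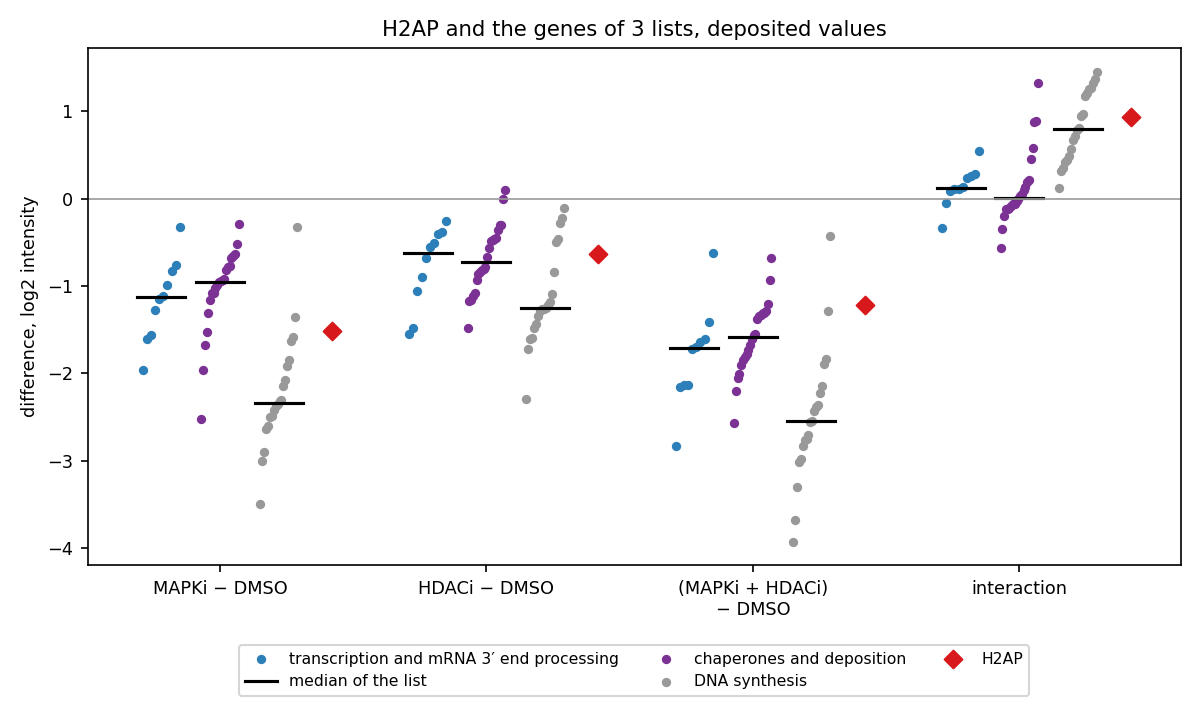
Differences in log2 intensity (vertical axis, deposited values) for H2AP (red diamonds) and the measured genes of 3 lists (points, 1 per gene, with black lines at the list medians) in 4 comparisons (horizontal axis). In the interaction H2AP stands at 0.94, and the list medians are 0.80 (DNA synthesis), 0.12 (transcription and processing) and 0.01 (chaperones).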

How the data were processed

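The authors deposited 1 table of probe set intensities on a linear scale, made with RMA in Transcriptome Analysis Console per the submitters' processing notes. Scaling between arrays, tool versions, genome build and the use of the ERCC spike-in RNA added before extraction are not stated in the sources used here. Of 29592 probe sets 14783 were linked to 1 gene symbol, 0 to several and 14809 to none. Symbols were updated by gene ID with RefSeq GRCh38.p14, and the brightest of several rows was kept, giving 14599 genes. H2AP had 1 row.

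The log2 of each value was fitted by lmFit, contrasts.fit and eBayes of limma 3.58.1 (R 4.3.3), with 1 mean per group over all 12 arrays and 8 residual degrees of freedom. P-values were adjusted by Benjamini-Hochberg over all 14599 genes, and under 0.05 was called higher or lower. The fit was tested on simulated data. Having 3 arrays per group limits precision.

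The histone rule, the gene lists, tests and alternatives were chosen with earlier results of these data known. The rule for named genes was every histone gene found, SLBP, and per list up to 4 passing genes with the largest change and 2 not passing with the largest mean, of which some are printed. A rule for splitting histone genes into replication-dependent genes and variants had no use with 1 gene. The gene order around H2AP was looked up after its values were seen. Plots used matplotlib 3.10.9 (Python 3.11.15).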

Additional observations from a re-analysis of the deposited data

Results flagged for a closer look

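The effect of MAPKi on H2AP differed with and without entinostat by the interaction term. MAPKi changed H2AP by -0.58 ± 0.17 on the log2 scale in cells given entinostat (the combination against HDACi) and by -1.51 ± 0.17 in cells without it (MAPKi against DMSO), a difference of 0.94 (limma adjusted p = 0.022, with a range of 0.0063 to 0.064 over its alternatives). In the DNA synthesis list 12 of 20 genes had an interaction called in the same direction, beside 3.16% of all named genes. Between the combination and MAPKi the median of that list was -0.36, while H2AP was at 0.30 and did not pass. Whether the interactions of H2AP and of that list are related was not tested. H2AP was dim in the groups given MAPKi, and whether a floor limited its fall was not tested.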

How the results depend on the processing

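The 6 differences of H2AP were recomputed under 7 alternatives that keep all arrays. Of 42 values 39 kept their direction and side of the threshold, 3 lost the call and 0 reversed. Only quantile normalization and subtraction of array medians change the values of H2AP, and they gave all 3 losses, 2 and 1. The other alternatives change the estimate of spread or the genes tested beside it. In them the size and direction of each H2AP difference were fixed in advance. After quantile normalization the number of histone genes called lower was 0 rather than 1 for HDACi against DMSO (H2AP -0.50, limma adjusted p = 0.0501) and for the combination against HDACi (-0.20), and after subtraction of array medians it was 0 for the combination against HDACi (-0.11). By construction, both remove the general shift between arrays. Over all genes, quantile normalization changed the calls for MAPKi against DMSO to 2205 higher and 2028 lower, against 434 higher and 9660 lower. The filter on the dimmest 40% of genes gave no value, since it removes H2AP. The median over histone genes is the value of H2AP itself.

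Each of 12 arrays was left out in turn. Of 72 values 66 kept their call, 5 lost it, all among the 12 of the interaction, and 1 gained it, in the combination against MAPKi. In both, the count of histone genes called higher ranged from 0 to 1. Where the left-out array belonged to neither group of a comparison, the difference itself could not change. The interaction ranged from 0.77 to 1.09, MAPKi against DMSO from -1.67 to -1.35, HDACi against DMSO from -0.77 to -0.47, the combination against DMSO from -1.35 to -1.05, against HDACi from -0.69 to -0.44 and against MAPKi from 0.19 to 0.46. The cause was not tested.

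Titles number the arrays 1 to 3. Deviations from the group means had an r across genes, which are not independent replicates, between same-numbered arrays of -0.11 to 0.12 (median 0.03). Other pairs had -0.12 to 0.07 (median -0.01), and the numbers were not taken to pair the arrays. Between HDACi and combination arrays, however, r was 0.11, 0.12 and 0.09 for same numbers and -0.07 to -0.03 for different numbers. With the replicate number as a block, MAPKi against DMSO stayed at -1.51 (limma adjusted p = 1.5e-06), the interaction had an adjusted p of 0.020, and no call of H2AP changed. A fit on all 29592 probe sets, chosen after the data were seen, changed no call either. No background level is given, so how far H2AP stands above it is unknown.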
